A study of Mus musculus with 14 samples.

Results

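The serum-alone state of Y1 cells was described from 5 of the 14 samples of the series, 3 poly(A) RNA-seq libraries and 2 H3K27ac ChIP-seq libraries. The members were taken by label: every sample treated with serum and no FGF-2, read as RNA or as H3K27ac. Y1 cells derive from a mouse adrenal cortex tumour, so the libraries describe 1 line in culture and not adrenal tissue. Cells were deprived of serum for 48 hours and then given 10% fetal bovine serum, and were harvested 5 hours later. The values therefore describe cells after re-feeding and not resting or steadily growing cells. The other 9 samples are the serum plus FGF-2 libraries and the sonicated inputs, and no FGF-2 contrast is made here. The inputs enter only through the deposited fold of each peak over input.

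Adrenocortical cells take up cholesterol, move it into mitochondria with the StAR protein and cut its side chain with the P450 enzyme CYP11A1. Later P450s and 3-beta-hydroxysteroid dehydrogenases turn the product into corticosterone, aldosterone or, in other tissues, sex steroids. The pathway is driven by ACTH through its receptor MC2R and cAMP, and its genes are bound by the nuclear receptor SF-1, encoded by Nr5a1. Acetylation of histone H3 at lysine 27 (H3K27ac) marks active promoters and enhancers.

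RNA levels are counts per 1000000 counts in genes (CPM), so each value is also a share of the library's gene counts. The table holds no transcript lengths, so the order of genes by CPM is an order of reads and not of molecules. A gene was called on at 1 CPM or more in each of the 3 libraries and silent at 3 counts or fewer in each; the remainder were called low. The serum RNA libraries held 9080194, 8141015 and 5611722 counts in genes, and 3 counts equal 0.33, 0.369 and 0.535 CPM in them. Of 24464 listed genes, 10121 were on (41.4%), 12643 were silent (51.7%) and 1700 were low. Between 31.8% and 35.6% of listed reads fell outside genes and between 7.6% and 8.3% were ambiguous. The H3K27ac libraries had 12856806 and 14156846 fragments, with 44340 and 41975 deposited peaks. Of 40772 deposited regions, 30499 (74.8%) overlapped a peak in both serum libraries, and 12980 of these were annotated as promoters. Promoters were 42.6% of the regions called in both and held 64.4% and 62.1% of the signal. A serum promoter region below is a region annotated Promoter (within 3 kb of a start) that overlaps a peak in both serum libraries. By this rule 10180 of the 24464 genes had one (41.6%). The signal of a region is the deposited value, whose scaling is not given in the sources used here. Across the regions called in both, the signal in library 1 was a median of 1.24 times that in library 2.

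Serum RNA library 3 stood apart from the other two in a small set of genes. Across the on genes the Spearman rank correlation between libraries 1 and 2 was 0.993, against 0.984 and 0.986 for library 3 with libraries 1 and 2. Library 3 was at least 2-fold above both others in 63 on genes and at least 2-fold below both in 60. The matching counts were 33 and 23 for library 1, and 20 and 5 for library 2. Library 3 also had the fewest counts in genes, and the part of depth in these differences was not tested. The median coefficient of variation of the on genes was 0.12 with all 3 libraries and 0.07 without library 3. The labels do not say whether the libraries came from separate cultures, so an SD here covers the spread between these libraries only.

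A further limit touches every gene called silent. Of 78 cytosolic ribosomal protein genes, which all cells need, 72 were on (92.3%, beside 41.4% of all genes), yet Rps21, Rps28, Rpl10a and Rpl26 were listed at 0 counts in each library. Rps28 had a serum promoter region with signals of 364 and 277, and Rpl10a one with 661 and 508. Eno1, the glycolytic enzyme enolase, had 2, 4 and 1 counts beside promoter signals of 740.3 and 543. Silent calls are therefore set beside the promoter reading below, and why these genes were listed at 0 was not tested. That reading goes by the symbol of a region, so a start can lie in a region named for a neighbour.

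The promoter sequences of 4 loci show what a start site with and without H3K27ac looked like. The RefSeq windows (GRCm38.p6) run from 250 bases before to 50 bases after a start. No entry was found for Star and Nr5a1. The capitals mark the letters searched on both strands: AGGTCA (the core letters of nuclear receptor sites), CAAGGTCA (the longer SF-1 form, which contains the former), CCAAT (the CCAAT box), GGGCGG (the GC box), TATAAA (the TATA box) and TGACGTCA (the cAMP response element). Cyp11a1 has 2 annotated starts, both on the plus strand. The first window, at chr9:57997774-57998073, lay in no serum region and held CCAAT and, on the opposite strand, GGGCGG. The second, at chr9:58014702-58015001, lay in the serum promoter region and held AGGTCA at base -28 from the start.
Cyp11a1, first start: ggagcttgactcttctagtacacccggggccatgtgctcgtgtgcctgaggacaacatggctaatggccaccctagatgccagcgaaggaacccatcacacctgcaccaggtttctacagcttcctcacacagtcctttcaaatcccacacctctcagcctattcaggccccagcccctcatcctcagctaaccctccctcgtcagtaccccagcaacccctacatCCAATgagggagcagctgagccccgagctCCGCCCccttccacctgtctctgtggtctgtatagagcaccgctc
Cyp11a1, second start: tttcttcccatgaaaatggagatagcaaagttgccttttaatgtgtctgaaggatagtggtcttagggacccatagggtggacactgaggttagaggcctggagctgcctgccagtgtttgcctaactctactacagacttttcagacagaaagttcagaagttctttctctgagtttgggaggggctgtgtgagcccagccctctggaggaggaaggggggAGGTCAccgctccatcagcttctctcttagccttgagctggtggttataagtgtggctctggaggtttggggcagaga
Hsd3b1, whose RNA was low and which had no promoter region, has its window at chr3:98859745-98860044 on the minus strand, with CCAAT as the only match.
Hsd3b1: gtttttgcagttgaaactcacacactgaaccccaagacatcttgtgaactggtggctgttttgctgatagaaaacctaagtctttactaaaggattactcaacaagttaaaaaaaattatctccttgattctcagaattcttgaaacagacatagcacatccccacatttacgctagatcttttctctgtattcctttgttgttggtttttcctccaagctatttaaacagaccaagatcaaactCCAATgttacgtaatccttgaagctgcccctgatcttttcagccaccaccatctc
Sspn, the gene of the count table with the highest promoter signal, has an active window at chr6:145933872-145934171 on the plus strand that held none of the searched letters.
Sspn, second start: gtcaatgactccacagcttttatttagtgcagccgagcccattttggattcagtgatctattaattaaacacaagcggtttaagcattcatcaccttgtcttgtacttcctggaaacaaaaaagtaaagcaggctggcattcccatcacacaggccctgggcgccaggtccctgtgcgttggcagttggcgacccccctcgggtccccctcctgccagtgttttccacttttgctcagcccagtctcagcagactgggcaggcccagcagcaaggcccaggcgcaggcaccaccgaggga
Ints13, listed as Asun in the count table, and Fgfr1op2 start back to back, so that their windows overlap. The Ints13 window is at chr6:146577786-146578085 on the minus strand and the Fgfr1op2 window at chr6:146577661-146577960 on the plus strand. Both lay in 1 serum region, and the same CCAAT and the nearest GC box appear in each, on opposite strands.
Ints13: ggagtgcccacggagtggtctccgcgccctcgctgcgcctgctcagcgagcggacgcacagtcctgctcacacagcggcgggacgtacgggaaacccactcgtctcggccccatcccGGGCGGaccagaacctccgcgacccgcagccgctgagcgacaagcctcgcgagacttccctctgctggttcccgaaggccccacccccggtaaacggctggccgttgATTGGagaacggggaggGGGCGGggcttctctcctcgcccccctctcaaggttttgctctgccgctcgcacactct
Fgfr1op2: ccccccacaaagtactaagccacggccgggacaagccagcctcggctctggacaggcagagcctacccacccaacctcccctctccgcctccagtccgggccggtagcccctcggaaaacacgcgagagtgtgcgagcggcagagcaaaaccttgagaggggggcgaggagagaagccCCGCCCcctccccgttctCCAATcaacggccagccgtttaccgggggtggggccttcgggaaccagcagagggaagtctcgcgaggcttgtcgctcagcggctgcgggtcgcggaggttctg

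Over all 32851 mouse windows, GGGCGG was present in 35.7%, and it was present in 64.2% of 10028 windows of on genes and 29.7% of 10268 windows of silent genes. TATAAA ran the other way, at 6.49% for on genes and 18.2% for silent genes, with 13.6% over all. TGACGTCA was in 3.14% of windows of on genes and 1.61% of windows of silent genes, with 1.79% over all. CCAAT hardly separated the classes, at 38.5% and 38.8%, with 37.4% over all. AGGTCA was in 12.4% and 16.5%, with 16.3% over all, and CAAGGTCA in 0.957% and 1.53%, with 1.56% over all. Windows of 1 gene can overlap and are not independent. A match is a match of letters and not a measured binding site.

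The most abundant genes were those of protein synthesis, the matrix and the cytoskeleton. The 10 genes of highest mean CPM held 4.63%, 4.6% and 5.78% of counts, the top 100 held 19.4%, 20.1% and 21.9%, and the top 1000 held 55.3%, 55.6% and 57.8%. It took 765, 752 and 661 genes to reach 50% of the counts. Library 3 had the highest share at each of these depths. Eef2, the elongation factor that moves the ribosome along mRNA, ranked first at 9485, 9751 and 8602 CPM. Hspg2, which encodes the basement membrane proteoglycan perlecan, was also among the leading genes at 4377, 5473 and 6284 CPM.

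Several of the 20 leading genes build or fold secreted matrix. Col1a1 (a collagen I chain) stood at 3303 ± 365 CPM (SD, n = 3), Sparc (a collagen-binding matrix protein) at 3053 ± 201 CPM and Serpinh1 (the collagen chaperone HSP47) at 2718 ± 71.7 CPM. The endoplasmic reticulum chaperone Hspa5 was at 4114 ± 583 CPM and the disulfide isomerase P4hb at 3553 ± 388 CPM. Itgb1, the shared beta chain of many matrix receptors, was at 4337 ± 1041 CPM. Others served the cytoskeleton, namely Actb (beta-actin, 4569 ± 569 CPM) and Flna (the actin cross-linker filamin A, 2432 ± 56.8 CPM). Scd2, a fatty acid desaturase, was at 4518 ± 362 CPM. Further genes of the 20 were Cd63, Hsp90ab1, Eef1a1, Psap, Sspn, Gpnmb and the ribosomal RNA precursor Rn45s, at 2601 ± 454 CPM in these poly(A) libraries. Of these, Gpnmb varied most, from 1645 CPM in library 3 to 3475 CPM in library 2. The 24 on members of the 29-gene actin, tubulin and filament list brought that list to 18278 ± 819 CPM, and the ribosomal protein list summed to 20647 ± 1439 CPM.

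Cholesterol supply was largely on, with 9 of 12 members on, 2 low and 1 silent, beside 41.4% of all genes on. Soat1, which esterifies cholesterol for storage, was at 601, 527 and 899 CPM. Srebf2, the factor that raises cholesterol uptake and synthesis genes, was at 658 ± 35.1 CPM. Scarb1, the HDL receptor, which takes up cholesterol, was on at 274 ± 46.9 CPM. The exporter Abcg1 was listed at 0 in all 3 libraries with no promoter region, and Abca1, the other exporter of the list, was low at 1.43, 3.44 and 0.356 CPM. All 9 on members had a serum promoter region.

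Delivery to the mitochondrion was also on. Star stood at 112, 135 and 302 CPM, with library 3 above the others. Its promoter regions summed to signals of 176 and 119, near the median of 160 for genes with a serum promoter region. Tspo (the outer-membrane translocator protein) was at 118 ± 8.68 CPM, Vdac1 (the outer-membrane channel) at 329.6 ± 53.5 CPM, Acbd3 at 52.3 ± 1.18 CPM, Stard3 at 38.2 ± 2.33 CPM and Stard5 at 4.77 ± 1.41 CPM. Stard4, a carrier of the same family, was listed at 0 in every library beside a promoter signal of 226 in library 1, and so read as silent in RNA only.

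Of 6 steroidogenic P450 enzymes 2 were on, Cyp11a1 and Cyp11b1 (33.3%, beside 41.4% of all genes), and 4 were silent. Cyp11a1, the side-chain cleavage enzyme, was at 149, 119.5 and 149.7 CPM, with promoter signals of 359 and 293. Cyp11b1, the 11-beta-hydroxylase of corticosterone synthesis, was at 5.84, 10.8 and 14.3 CPM, with the lowest value in library 1, and had no promoter region of its own. Its values did not overlap those of Cyp11a1 in any library. Cyp21a1, the 21-hydroxylase, Cyp11b2, the aldosterone synthase, and Cyp19a1, the aromatase, were listed at 0 in each library. Cyp17a1, the 17-hydroxylase, had 0, 1 and 2 counts. None of these 4 silent P450s had a promoter region of its own symbol. The RefSeq start window of Cyp19a1 lay in no serum region. No window was available for Cyp11b2, Cyp17a1 and Cyp21a1, so H3K27ac at their starts was read by symbol only. Cyp21a1 has a near-identical pseudogene copy in mouse, and reads that fit both could not have been assigned to it.

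Among 26 hydroxysteroid dehydrogenases and reductases 12 were on, 4 low and 10 silent (46.2% on, near the 41.4% of all genes). Hsd17b12, which also elongates fatty acids, led with 443, 435 and 570 CPM. Hsd3b7, an enzyme of bile acid synthesis, was at 129 ± 14.6 CPM. The steroid-forming Hsd3b1 was low, with 5, 5 and 12 counts, and Hsd3b6 was just on at 5.51, 4.05 and 8.91 CPM. Hsd3b2, Hsd3b3, Hsd3b4 and Hsd3b5 were listed at 0; the Hsd3b genes are near copies of each other, so shared reads make their values uncertain. None of the 10 silent members had a promoter region. Akr1b7, a detoxifying reductase known as an ACTH target of adrenal cortex, was low at a mean of 0.765 CPM, and Akr1c18, which breaks down progesterone, was listed at 0.

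Of 6 partners that pass electrons to these enzymes 5 were on (83.3%, beside 41.4% of all genes). Por, the reductase that serves microsomal P450s, was at 1261, 1444 and 2053 CPM, highest in library 3. Fdxr, the mitochondrial ferredoxin reductase, was at 199 ± 14.8 CPM, and Fdx1, the ferredoxin that serves CYP11A1, was at 134, 141 and 212 CPM. Cyb5r3 was at 317 ± 23.1 CPM and Fdx1l was just on at 1.503 ± 0.239 CPM. Cyb5a, which helps the lyase step of CYP17A1, was listed at 0 with a promoter signal of 14.7 in library 1. The plot of steroid pathway genes shows Star, Cyp11a1, Por, Fdx1 and Fdxr above 100 CPM, Cyp11b1 between 5.84 and 14.3 CPM, and the other P450s and Cyb5a at or near the floor.

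**Figure D1:**
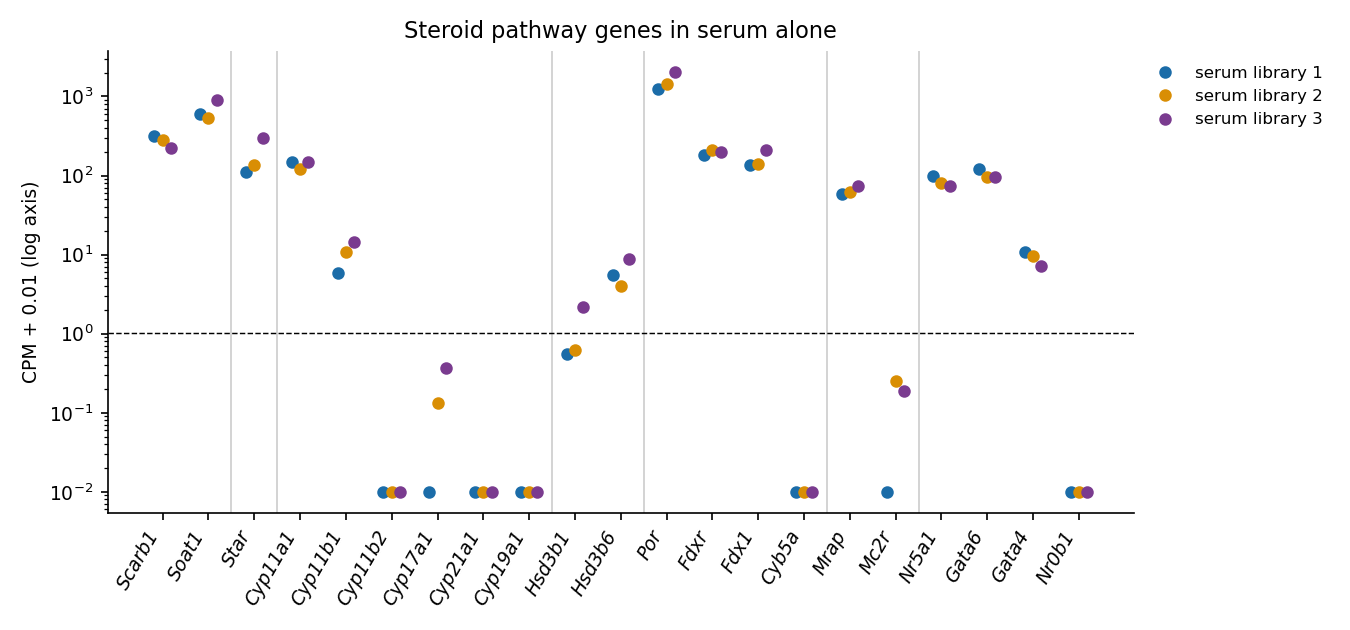
CPM + 0.01 on a log axis for steroid pathway genes, with 1 point for each of the 3 serum RNA libraries and a dashed line at 1 CPM. Por, Scarb1, Soat1, Star, Cyp11a1, Fdx1 and Fdxr lie above 100 CPM in each library, whereas Cyp11b2, Cyp21a1, Cyp19a1, Cyb5a and Nr0b1 lie at the floor, where a count of 0 is drawn at 0.01.

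Much of the ACTH pathway below the receptor was on. Mc2r, the ACTH receptor, had 0, 2 and 1 counts and no promoter region of its symbol. The 5 regions annotated to it that were called in both libraries lay far off, from -42332 to -147125 bases from its start. Mrap, the accessory protein that brings MC2R to the cell surface, was at 58.1, 62.03 and 73.1 CPM with promoter signals of 709 and 614. Gnas, the stimulatory G protein, was at 1266 ± 229 CPM. The adenylate cyclases that were highest were Adcy7, at 616 ± 127 CPM, and Adcy6, at 351 ± 21.7 CPM; Adcy1, Adcy2, Adcy4, Adcy5 and Adcy8 were silent with no promoter region. The regulatory subunits of protein kinase A were led by Prkar1a, at 310.0 ± 33.2 CPM, and Prkar2a, at 242 ± 13.01 CPM. The catalytic subunits Prkaca and Prkacb were at 97.3 ± 14.6 and 92.6 ± 23.3 CPM. In all, 17 of the 26 list members were on (65.4%, beside 41.4% of all genes) and 8 silent (30.8%, beside 51.7%). Crtc2 and Prkar1b were silent in RNA beside a serum promoter region.

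Most other hormone and transmitter receptors were silent. Of 85 G protein-coupled receptors 16 were on, 10 low and 59 silent, which is 18.8% on beside 41.4% of all genes and 69.4% silent beside 51.7%. Avpr1a, the V1a vasopressin receptor, was the highest at 1138, 747 and 1065 CPM, with promoter signals of 1447 and 897 over a stretch whose input background was 3.49 and 4.19 times the library median. Smo, the Hedgehog signal transducer, followed at 638, 676.5 and 465 CPM, then F2r, the thrombin receptor, at 317, 382 and 564 CPM, and S1pr2, a sphingosine phosphate receptor, at 119 ± 9.36 CPM. Avpr1a was lowest in library 2, Smo in library 3 and F2r in library 1. The order given is that of the means, and in library 3 F2r stood above Smo. The other on receptors reached at most 41.7 CPM, the mean of Lpar2. Agtr1a, the angiotensin receptor of the outer cortex, was low at 2.86, 0.246 and 0.535 CPM. The receptors for luteinising hormone (Lhcgr), follicle-stimulating hormone (Fshr), thyrotropin (Tshr) and glucagon (Gcgr) were silent. Of the 59 silent receptors, 58 had no serum promoter region, as had all but 10.8% of silent genes; the exception was Htr2a, a serotonin receptor, with 0, 1 and 1 counts and promoter signals of 61.7 and 59.3.

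Receptor tyrosine kinases were on in 25 of 58 cases (43.1%, near the 41.4% of all genes). Axl, the receptor for GAS6, was at 2019, 2427 and 2301 CPM and had promoter signals of 1099.5 and 963. Ddr1, a collagen receptor, was at 603 ± 66.7 CPM, Epha2, an ephrin receptor, at 536 ± 130.1 CPM and Lmtk2 at 262 ± 28.7 CPM. Epha2 was highest in library 3, at 684 CPM against 485 and 439. Among receptors for fibroblast growth factors, Fgfr1 led with 224, 218 and 192 CPM. Fgfr4 was at 6.39, 4.299 and 4.28 CPM, Fgfr2 at 1.54, 1.597 and 2.495 CPM, and Fgfr3 was low with 2, 4 and 1 counts. The 3 Fgfr1 values lay far above every value of the other receptors of the family, and those of Fgfr4 lay above those of Fgfr2. The order of promoter signal by symbol differed from that of RNA: Fgfr2 had 237 and 204, Fgfr1 had 161 and 105, Fgfr3 had 83.8 and 42.6 and Fgfr4 had 58.9 and 25.9. The RefSeq start windows of Fgfr2 and Fgfr4 lay in no serum region, that of Fgfr3 lay in one, and Fgfr1 had no window. The strongest Fgfr1 region lay in an intron, with signals of 400 and 360. Egfr was silent with no promoter region, Erbb2 was on at 91.3 CPM, and Pdgfra and Pdgfrb were low at 1.38 and 0.846 CPM. Igf1r was on at 157 ± 10.3 CPM. Insr, the insulin receptor, was listed at 0 in every library although it had a serum promoter region with signals of 139 and 85.2.

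Receptors for other growth signals were read in 3 lists, beside the 41.4% of all genes that were on; differences between lists were not tested. In the TGF-beta, activin and BMP family 10 of 14 were on (71.4%), led by Bmpr2 (275 ± 34.8 CPM), Tgfbr1 (197 ± 23.6 CPM), Tgfbr2 (167 ± 6.53 CPM) and Bmpr1a (138 ± 16.05 CPM). Amhr2, the anti-Mullerian hormone receptor, Bmpr1b and Acvr1c were silent with no promoter region. Of 25 cytokine receptors 16 were on (64.0%). Il6st, the signal chain shared by the interleukin-6 family, was at 585, 599 and 587 CPM, whereas Lifr, a partner of that chain, was silent with a weak promoter region (signals of 11.05 and 7.52) that was not called in both libraries. Ifnar1 was at 171 ± 8.42 CPM, Il4ra at 141 ± 29.1 CPM and Tnfrsf1a at 123 ± 4.32 CPM. Prlr and Ghr, the prolactin and growth hormone receptors, were silent with no promoter region. Of 21 Notch, Hedgehog and Wnt receptors 13 were on (61.9%), among them the Wnt co-receptors Lrp5 (249.8 ± 35.2 CPM) and Lrp6 (219 ± 26.5 CPM) and Notch2 (167 ± 41.2 CPM). Lgr5 was silent with no promoter region and its relative Lgr4 was on at 107 CPM.

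Of 49 nuclear receptors 26 were on, 5 low and 18 silent, which is 53.1% on beside 41.4% of all genes and 36.7% silent beside 51.7%. Nr5a1, which encodes SF-1, stood at 98.02, 80.5 and 73.2 CPM, with promoter signals of 300.2 and 237 in a region at chr2:38713010-38715409. Of the 49, 3 stood above it: Nr2f6 (129.5 ± 2.52 CPM), the glucocorticoid receptor Nr3c1 (122 ± 11.1 CPM) and the estrogen receptor Esr1 (100.2 ± 34.5 CPM). The Esr1 values of 134, 65.2 and 101 CPM spanned those of Nr5a1. Nr0b1, which encodes the SF-1 repressor DAX-1, was listed at 0 with no promoter region. Nr5a2, the closest relative of Nr5a1, and the mineralocorticoid receptor Nr3c2 were silent with no promoter region. The cAMP-responsive Nr4a1 was on at 21.4 ± 2.81 CPM. The vitamin D receptor Vdr was on at 7.41 CPM, and those for progesterone (Pgr) and PPAR-gamma ligands (Pparg) were silent with no promoter region. Nr1h3 and Nr2c2 were silent in RNA beside a serum promoter region.

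Of 20 factors of adrenal and gonadal identity 12 were on, 1 low and 7 silent, which is 60% on beside 41.4% of all genes and 35.0% silent beside 51.7%. Cited2, which acts with SF-1 in adrenal development, was at 82.8, 120.1 and 113 CPM. Gata6 was at 121, 95.8 and 94.4 CPM with promoter signals of 1277 and 857, and Gata4, its relative of fetal adrenal and gonad, was at 10.9, 9.704 and 7.13 CPM with 189.7 and 147. Each Gata6 value was above every Gata4 value. Other on members were Six4 (24.2 ± 1.29 CPM), Nr4a1, Gli1 (20.05 ± 12.7 CPM), Pknox1 (11.98 ± 1.45 CPM), Nr2f2 (10.9 ± 2.07 CPM), Sox9 (7.84 ± 3.25 CPM) and Emx2 (7.84 ± 0.833 CPM). Gli1, a Hedgehog target of the capsule, differed between libraries, at 18.8, 33.3 and 8.02 CPM. The capsule and gonadal ridge factors Wt1, Tcf21 and Lhx9 were silent with no promoter region, as were the ovarian Foxl2 and the testicular Dmrt1. Dlk1, a marker of adrenal progenitors, was low at 0.393 CPM.

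HOX genes, which mark position along the body axis, were on in 21 of 39 cases (53.8%, beside 41.4% of all genes). Hoxb9 was the highest at 160, 149 and 153 CPM with promoter signals of 918 and 711. Hoxb8 (38.4 ± 7.99 CPM), Hoxb6 (28.8 ± 3.78 CPM) and Hoxd8 (27.5 ± 8.9 CPM) followed. Hoxd9 to Hoxd13 and Hoxc11 to Hoxc13 were silent with no promoter region. Hoxc6 and Hoxb5 carried promoter signals of 3628 and 2576.5, and of 3543 and 2328, among the highest of the table, beside RNA of 17.5 and 12.5 CPM. Of 25 GATA and SOX factors 4 were on (16.0%, beside 41.4% of all genes), namely Gata6, Sox4 (11.01 ± 1.47 CPM), Gata4 and Sox9. Immediate early and MYC factors were on in 12 of 20 cases (60%, beside 41.4% of all genes). Fosl2 was at 397 ± 40.5 CPM, Atf4 at 230.2 ± 25.7 CPM, Myc at 203 ± 4.02 CPM and Jund at 159.5 ± 22.5 CPM, whereas Fos was at 16.1 CPM and Fosb was silent beside a serum promoter region. Junb carried promoter signals of 2296 and 1781 beside 106 ± 8.86 CPM.

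Factors that define other tissues were mostly silent. Of 40 such genes 34 were silent (85.0%, beside 51.7% of all genes), 5 on and 1 low. Of the 34, 1 had a serum promoter region, as had 10.8% of all silent genes. The silent genes included Myod1 and Myf5 of muscle, Pax3, Pax6 and Pax7 of neural and muscle precursors, and Pax8 of thyroid and kidney. The on members were Runx2 (59.8 ± 11.6 CPM) and Runx1 (34.3 ± 12.1 CPM) of bone and blood, Twist1 (31.3 ± 3.36 CPM) and Prrx1 (3.06 ± 1.097 CPM) of mesenchyme, and Tal1 (8.56 ± 1.54 CPM) of blood. The silent member with a promoter region was Phox2a, a noradrenergic neuron factor.

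Markers of other cells that adrenal tissue holds were read the same way; in bulk RNA, fewer cells of a type and less RNA per cell cannot be told apart. Of 10 fibroblast and capsule markers 3 were on (30.0%, beside 41.4% of all genes), with summed levels of 4183, 3489 and 4089.5 CPM over the list. Most of that sum was Col1a1, with Col3a1 at 336 ± 33.8 CPM and Col6a1 at 280.0 ± 63.7 CPM. Col1a2, Dcn, Lum, Postn and Rspo3 were silent with no promoter region, and Thy1 was silent beside one. Of 8 medulla markers 1 was on, Ddc at 6.94 ± 0.974 CPM, and Th, Dbh, Pnmt and Chga were silent with no promoter region. Of 7 endothelial markers Pecam1 alone was on, at 6.41 ± 2.45 CPM, and Kdr, Tek and Emcn were silent with no promoter region. Of 10 blood and macrophage markers Cd68, a lysosomal protein, alone was on at 7.03 ± 2.53 CPM, and Ptprc, Adgre1 and Itgam were silent with no promoter region. The summed levels in the 3 libraries were 6.39 to 8.23 CPM for medulla, 6.94 to 11.5 CPM for endothelium and 6.5 to 12.7 CPM for blood. In the Leydig cell list of 6 genes, Insl3, Hsd17b3, Cyp17a1 and Lhcgr were silent with no promoter region. Its members Rhox5 (69.9 ± 27.4 CPM) and Hsd3b6 were on. Rhox5 held most of the list's summed mean of 76.5 CPM, and whether it marks Leydig cells was not tested. The label of an adrenocortical line can be read against the genes listed as adrenal cortex markers. Of these, Nr5a1, Star, Cyp11a1, Cyp11b1, Mrap, Scarb1 and Fdx1 were on, Hsd3b1 and Akr1b7 were low, and Mc2r and Cyp21a1 were silent. Cyp11b2 and Nr0b1, which are outside that list, were also silent.

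**Figure D2:**
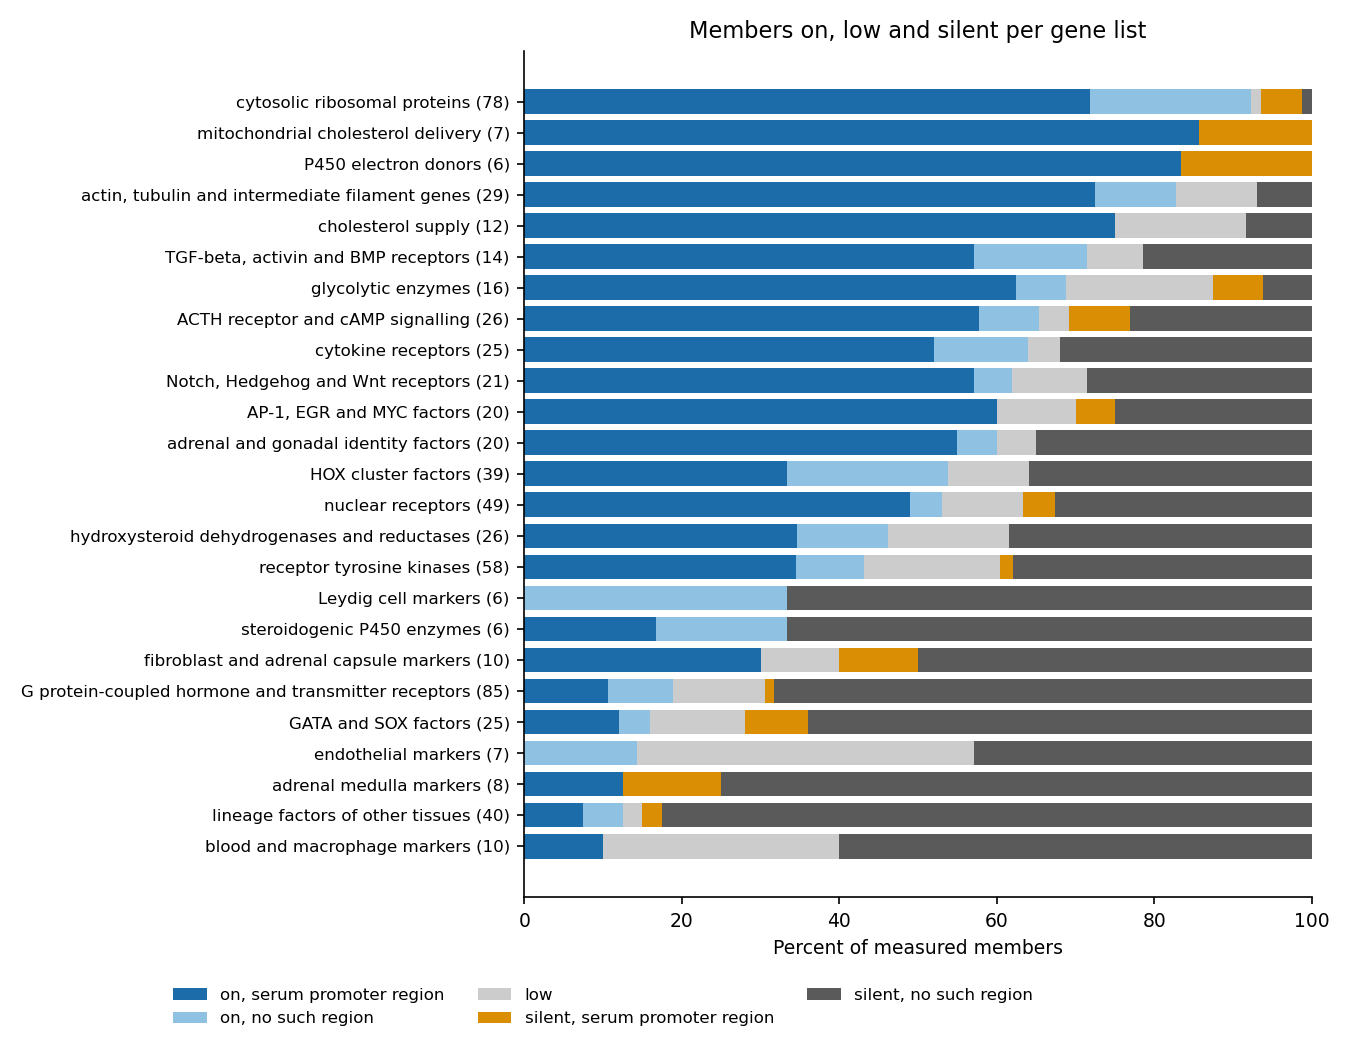
Share of measured members (number in brackets) that were on, low or silent, split by whether the gene had a serum promoter region, for 25 gene lists ordered by the share that was on. Ribosomal protein genes lie at the top with 92.3% on, and lineage factors of other tissues, with 12.5% on, near the bottom; 85.0% of the latter were silent.

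Distal chromosome 6 held a stretch with several abundant genes and very high H3K27ac signal. Sspn, which encodes the membrane protein sarcospan, was at 2876, 3035 and 2338 CPM, and Tm7sf3 was at 2550.4, 2715 and 1939 CPM. Asun, an Integrator subunit, was at 1647 ± 43.2 CPM, Caprin2 at 986 ± 68.7 CPM, Dennd5b at 775.5 ± 118 CPM, Med21 (a Mediator subunit) at 572 ± 50.6 CPM, Lyrm5 at 566 ± 40.6 CPM and the nuclear importer Ipo8 at 535 ± 60.7 CPM. Not every gene of the stretch was high. Fgfr1op2, which shares a start region with Asun, was at 33.1 ± 1.32 CPM, Stk38l at 8.15 ± 2.204 CPM, Smco2 at 3.73 ± 1.18 CPM and Casc1 at 2.68 CPM.

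The sonicated input was also high there. MACS2 gives each peak its pileup and its fold over local background, from which the background can be recovered. Over 102 regions of distal chromosome 6 this background was at least 10 times the library median in both libraries. Its median over them was 31.4 and 31.2 times the library median. These 102 regions were 0.25% of all regions and held 4.68% and 4.72% of the H3K27ac signal. The highest region of the whole table, at chr6:148942585-148947045 and annotated to 3010003L21Rik, had signals of 41878 and 28475 with a background 76.5 and 77.9 times the median. The Sspn promoter region, at chr6:145932990-145936327, had 21657 and 16252 at 44.1 and 44.3 times. Over its background, however, the Sspn peak was 98.9 and 71.4-fold enriched, and that of Fgfr1op2 99.7 and 72.3-fold. The median fold over input of the 102 regions was 5.63 and 5.27, below the 11.3 and 10.3 of all regions called in both libraries. So the deposited signal was higher there and the typical fold over input lower. The high background was not continuous: regions of ordinary background lay between the Sspn stretch and the Ipo8 and Caprin2 stretch.

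Of 22 listed genes within 1 kb of such a region, 17 were on, beside 41.4% of all genes. Their median was 535 CPM beside 37.7 CPM for all on genes. Such regions needed a peak in both libraries, and 81.8% of on genes but 10.8% of silent genes had a serum promoter region. All genes and all on genes are therefore unlike baselines. Of the 17, 10 (58.8%) were among the 1000 genes of highest CPM, which are 9.88% of on genes. The 22 genes held 1.27%, 1.34% and 1.13% of all counts. The high input background was measured in the same cell line but in other libraries than the RNA, and its part in the RNA levels was not tested. A milder rise of input background lay on chromosome 10. Among 1546 bins of 1 Mb with at least 5 peaks in each library, 11 had a background of 2 or more times the median in both. Of these, 3 lay on chromosome 6, at 21.4 to 31.3 times. A further 7 lay on chromosome 10, at 2.36 to 4.84 times. The bin at chr10:117000001-118000000 holds Mdm2, the p53 ubiquitin ligase, at 652 ± 59.98 CPM, and Rap1b at 619 ± 59.1 CPM, and its background was 3.86 and 4.04 times the median. The remaining bin was at chr9:3000001-4000000.

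**Figure D3:**
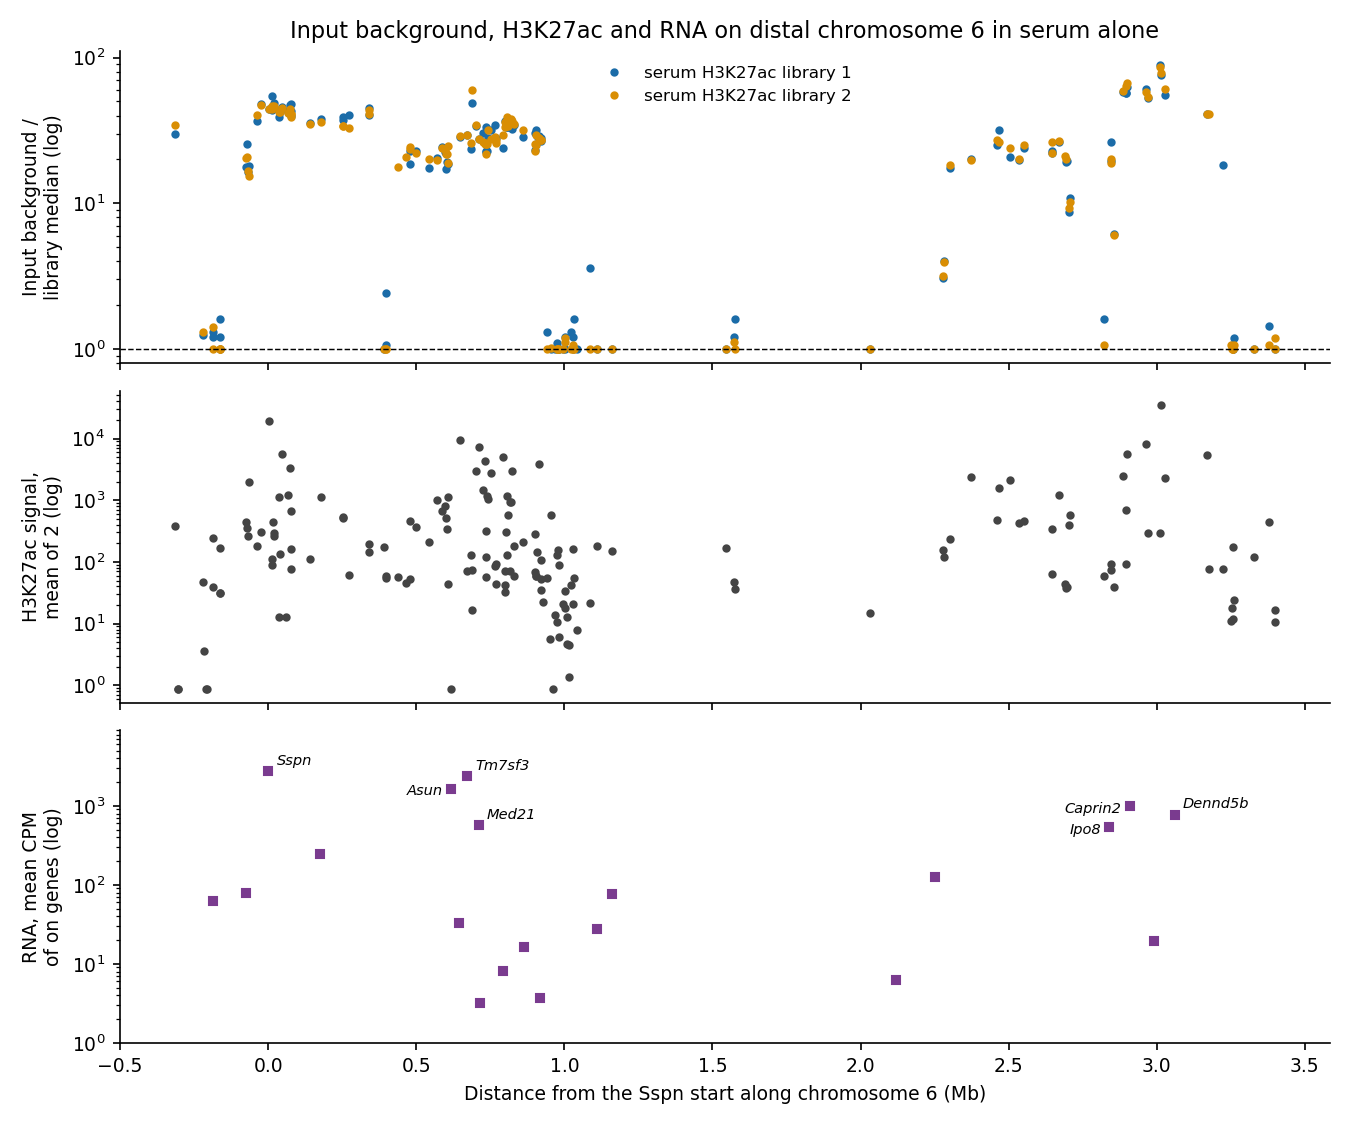
Input background relative to the library median (top, 2 H3K27ac libraries), mean H3K27ac signal of each region (middle) and mean CPM of on genes at the lower coordinate of each (bottom), all on log axes, against distance from the Sspn start in Mb. Background sits mostly near 1 between the raised stretches, where Sspn, Tm7sf3, Asun and Caprin2 lie, and its median in library 1 over all 102 raised regions, of which those far left of Sspn are not drawn, is 31.4.

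Promoter H3K27ac went with RNA level, but loosely. Over 10568 genes with a region annotated Promoter, the Spearman rank correlation between mean CPM and the summed promoter signal was 0.334, and it ranged from 0.326 to 0.338 over the 6 pairs of 1 RNA and 1 H3K27ac library. The points are genes of the same libraries and are not independent. From the lowest to the highest quintile of promoter signal the median CPM was 7.17, 22.6, 34.5, 47.4 and 66.3. The middle range of CPM in the highest quintile, from 12.8 to 168 CPM between quartiles, overlapped that of the quintile with a median of 22.6 CPM, from 5.51 to 54.4 CPM. Genes with no Promoter region had a median of 0 CPM. Among on genes 81.8% had a serum promoter region (95% Wilson interval 81.1 to 82.6%, for counting error only), among low genes 31.0% (28.8 to 33.2%) and among silent genes 10.8% (10.3 to 11.4%). Among on genes that share rose from 50.3% in the lowest decile of CPM to 92.5% in the highest.

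**Figure D4:**
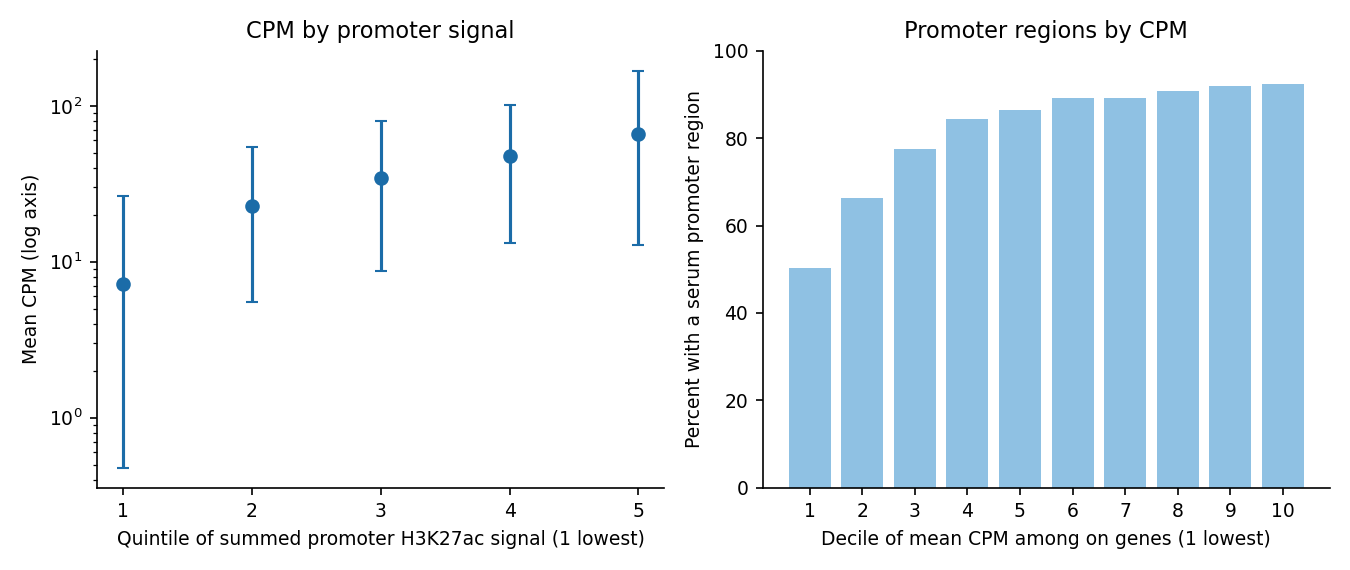
Left, median mean CPM (points, log axis) and quartiles (bars) by quintile of summed promoter H3K27ac signal, rising from 7.17 to 66.3 CPM with overlapping quartiles. Right, percent of on genes with a serum promoter region by decile of mean CPM, from 50.3% to 92.5%.

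Outside the stretches of raised input background, the genes of the count table with the highest promoter signal, by region symbol, were not those with the most RNA. The symbol can hide a match: the Snord37 region, also among the highest, lay over the start of Eef2, the gene of highest CPM. Malat1, a nuclear noncoding RNA at rank 50 by mean CPM, had the highest signals, 5699 and 4767, with 1043, 1511 and 2384 CPM. Its region spanned 25539 bases, beside a median of 1381 bases for promoter regions called in both libraries. No scaling by width was applied in this ranking. Neat1, the paraspeckle RNA beside Malat1 on chromosome 19, had 4033 and 3187 with 245 ± 96.1 CPM. Tnrc18 had 4381 and 3300.2 with 525 ± 51.3 CPM, and Tbx3, a T-box repressor, 3343.5 and 1838 with 311 ± 131 CPM. Over all genes of the count table, which left out the 3010003L21Rik region above, the 10 highest promoter signals were those of Sspn, Fgfr1op2, Caprin2, Med21, Lyrm5, Ipo8, Dennd5b, Malat1, Stk38l and Jmjd1c. All but Malat1 had a promoter input background of at least 4.37 times the library median in both libraries, beside 1.37 and 1.18 times for Malat1.

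Some abundant genes had no Promoter region of their own symbol because the region over their start carried the name of a neighbour. The region over the Eef2 start, with signals of 2780.0 and 2168, was annotated to Snord37, a small nucleolar RNA inside Eef2. The Asun start lay in the Fgfr1op2 region and that of Nisch (1332 CPM) in a Tnnc1 region. Gnas (1266 CPM) and Sptbn1 (1269 CPM) had 3 and 8 regions under other annotations, called in both libraries. Rn45s and Enpp2 (1638 CPM) had none of their own symbol under any annotation. Neither had a RefSeq start window, so whether a neighbour's region covered their starts was not read. In the same way the start of Rack1 (1067 CPM) lay in a Snord96a region and that of Tln1 (talin, 1006 CPM) in a Creb3 region, and both were picked with their values known. Of 1379 on genes with no serum promoter region and with a RefSeq start window, 696 (50.5%) had a window inside a serum region. By windows in place of symbols, 86.6% of on genes and 11.6% of silent genes were marked.

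The reverse case, H3K27ac at the promoter with RNA near 0, held for 1370 silent genes, of which 1104 were protein coding and 104 were microRNA genes. The highest of all were Mirlet7i (3710 and 2792), Mir23a (2456 and 1914), Lncpint, Mir21a and Clcf1-pold4; mature microRNAs are not captured in poly(A) libraries. Among protein coding genes Id1, an inhibitor of helix-loop-helix factors, had 0 counts in every library and promoter signals of 1486 and 1142, with peaks 32.8 and 36.9-fold over input. Rps6ka3, a kinase below ERK, had 0 counts and 1420 and 1188. Zeb2, a repressor, had 1, 0 and 1 counts and 1280 and 1120. Ywhaz, a 14-3-3 protein found in most cells, had 0 counts and 879 and 690.3, and Cltc, the clathrin heavy chain, 0 counts and 766 and 623. Ywhaz and Cltc were picked with their values known. For 101 of the 1104 (9.15%) the region also covered a start window of an on gene, as with Tmem198b beside Dnajc14. Why the others lacked counts was not tested.

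The genes with the largest relative spread between serum libraries were secreted signals and matrix genes. Inhba, which encodes the activin A subunit, was at 8.26, 12.7 and 192.5 CPM, and Serpinb2, a protease inhibitor, at 15.9, 31.8 and 409.7 CPM. Il11, a cytokine, was at 4.74, 4.91 and 25.5 CPM, Thbs2 at 59.1, 139 and 454 CPM and Havcr2 at 19.9, 16.3 and 73.95 CPM. In all of these library 3 was the highest. Nkd1, a Wnt feedback inhibitor, ran the other way at 53.1, 15.6 and 9.27 CPM, as did Wnt4 at 276.5, 80.5 and 60.8 CPM, and Plce1 was highest in library 2 at 39.2 CPM. Of the 20 genes with the largest coefficient of variation at a mean of 10 CPM or more, 11 were highest in library 3 and 7 in library 1. The latter included the secreted ligands Wnt2 (208, 64.9 and 59.3 CPM) and Shh (186, 64.7 and 33.3 CPM) and the Wnt-degrading enzyme Notum (305.5, 106.5 and 73.6 CPM). What set library 3 apart was not tested.

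**Figure D5:**
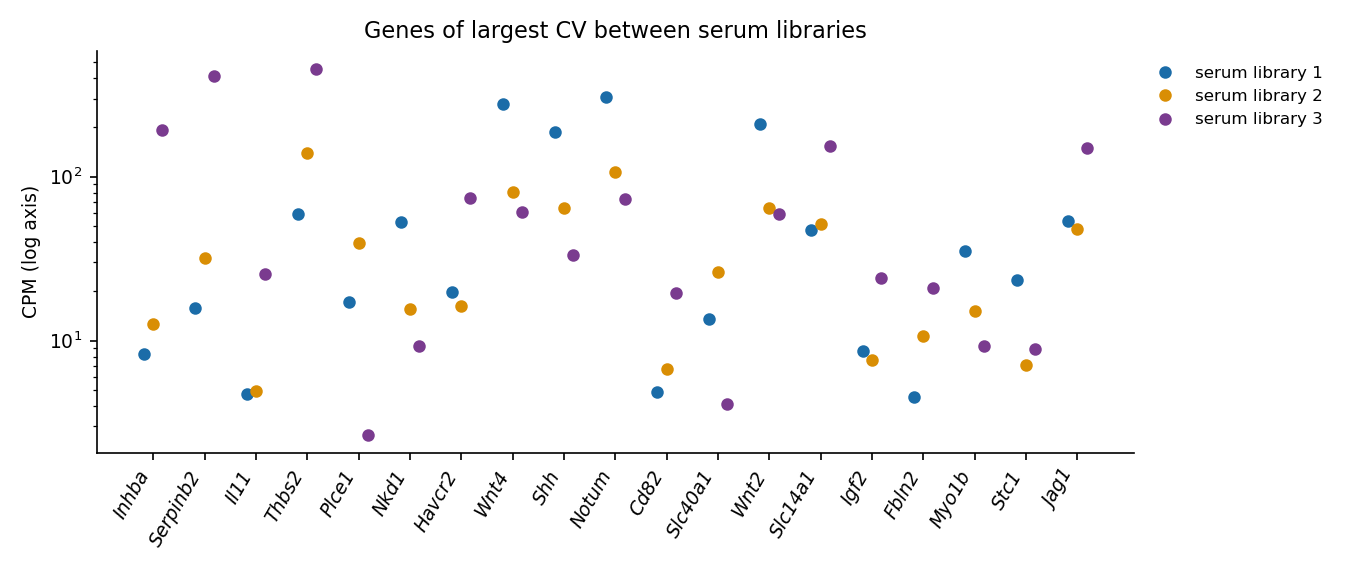
CPM on a log axis for 19 of the 20 genes with the largest coefficient of variation at a mean of 10 CPM or more, 1 point for each serum RNA library. Library 3 is the highest for 10 of those drawn, among them Inhba, Serpinb2 and Il11, and library 1 for 7, among them Wnt4, Shh, Wnt2 and Notum.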

How the data were processed

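Counts per gene were deposited by the authors for each RNA library; the submitters' processing notes name STAR 2.5.2a, HTSeq 0.10.0 and the mm10 build, and per the labels' protocols the kit was directional with poly(A) selection. No source used here gives the strand setting or the annotation. The row Unannotated, which names no gene, held 0.23% to 0.236% of counts and was left out. The deposited peak lists give pileup signal, ratio (fold over input) and −log10 q per peak from MACS2 2.2.6, at q of 0.01 per the file headers. The deposited region table gives 1 signal per region and library.

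CPM, counts of genes and rank correlations were computed with Python 3 and pandas, and TMM factors with edgeR in R. Counts were joined to regions by symbol, then by RefSeq identifier, since 99.5% of symbols matched. Background was taken as (pileup + 1)/fold − 1. Named genes were the 20 of highest CPM, the leading and silent members of 27 lists (mitochondrially encoded genes had no measured member), and the extremes of promoter signal and spread. The members and lists were chosen with earlier results of these data known. Scripts were tested on simulated data. Some genes that the rule names are not reported here.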

Additional observations from a re-analysis of the deposited data

How the results depend on the processing

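The count of on genes stayed within 1.5 times its value at 0.5, 2 and 5 CPM, with TMM scaling (10121) and without each RNA library (10221 to 10266), as did the 332 on members over all lists. Of 156 recounts of single lists, 148 stayed within 1.5 times. The top 100 genes held 20.5% of gene counts on average, 12% of all listed reads, and 19.8% to 21% without 1 library. The rank correlation of CPM with promoter signal was 0.334; it was 0.327 with the highest region, 0.315 within 1 kb, 0.276 per kb, 0.391 over on genes and 0.327 to 0.337 without 1 library. Alternatives chosen after seeing the data gave 0.328 without regions of high input background, 0.284 with peak fold over input, 0.31 over regions called in both libraries and 0.412 over on coding genes. The share of on genes with a serum promoter region, 81.8%, was 80.8% with stricter peaks, 77.8% when 0.5 of the region had to be covered, 84.0% with every Promoter region, 86.6% by start windows (added later), 83.0% for coding genes (added later), and 81.1% to 83.2% without 1 library. For silent genes, 10.8%, the same settings gave 10.4%, 9.86%, 11.7%, 11.6%, 11.6% and 10.9% to 11.4%. The median coefficient of variation was 0.07 to 0.12 without 1 library. CPM per kb of transcript was not run, as no transcript lengths were at hand. Libraries of 5611722 to 9080194 counts put 3 counts at 0.33 to 0.535 CPM, so a gene called silent can still have counted reads up to these levels. RNA whose reads were not counted would not be limited by them. No paired analysis was possible because no groups were compared.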
